A study of Homo sapiens with 4 samples.

Results

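miR-192, miR-194 and miR-215 are microRNAs, short RNAs that guide the silencing machinery to matching messenger RNAs. They are the assays hsa-miR-192, hsa-miR-194 and hsa-miR-215, 3 of the 377 human miRNA assays on a TaqMan PCR card. They were selected on their names with their values in these samples already known, among them the cellular change of miR-194 and the appearance of miR-215 under hypoxia. Their values are therefore given as a description, with no test.

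The samples came from RPMI8226, an established cell line of human multiple myeloma, a cancer of plasma cells, grown in AIM-V medium. There were 4 groups of 1 sample each: the exosome fraction of medium from hypoxic culture (1% oxygen, 24 h), the exosome fraction from normoxic culture (20% oxygen, 24 h), hypoxic cells and normoxic cells. The exosome fraction, which holds small released vesicles, was precipitated with a polymer from 5 ml of filtered medium, and a plant miRNA, ath-miR159, was added to every lysate as a spike-in. Reverse transcription products of the exosome fraction were pre-amplified and those of the cells were not. With 1 sample per group, 1 cell line and 1 well per miRNA, no value has a replicate error and no test between conditions can be made. In such bulk RNA, a lower level in every cell and a smaller number of cells that hold the miRNA cannot be told apart.

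The 3 miRNAs are best known in the liver, gut and kidney, where they are abundant. Their target messenger RNAs were not measured here.

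The mature sequences show which of the 3 could act on the same targets, because a miRNA finds its targets mainly through its seed, bases 2 to 8. All 3 names matched RefSeq entries (GRCh38.p14), as the 5p arm that the older names without an arm denote. They are given 5′ to 3′ with the seed in capitals.
miR-192-5p: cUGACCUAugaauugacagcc
miR-215-5p: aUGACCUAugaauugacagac
miR-194-5p: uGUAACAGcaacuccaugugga
miR-192-5p and miR-215-5p share the seed UGACCUA and are identical at 19 of 21 bases. The differences, with miR-192-5p first and positions counted from 1 at the 5′ end, are C1A and C20A. No other human mature miRNA in the RefSeq table has this seed. miR-194-5p has the seed GUAACAG, and no other human mature miRNA in that table has it.

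The miRNAs come from 2 gene pairs, each made of a miR-194 gene and a gene for miR-192 or miR-215. MIR215 (chr1:220117853-220117962, minus strand) and MIR194-1 (chr1:220118157-220118241, minus strand) lie 194 bases apart within the span of the gene IARS2 and of the uncharacterised locus LOC124904515. MIR192 (chr11:64891137-64891246, minus strand) and MIR194-2 (chr11:64891355-64891439, minus strand) lie 108 bases apart within the span of the non-coding host gene MIR194-2HG. Both miR-194 hairpins are shown because they carry the same mature sequence, given in capitals.
MIR194-1: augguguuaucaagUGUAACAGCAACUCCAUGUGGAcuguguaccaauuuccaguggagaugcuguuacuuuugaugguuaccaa
MIR194-2: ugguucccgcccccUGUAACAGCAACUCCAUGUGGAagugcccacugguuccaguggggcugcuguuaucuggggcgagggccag
The hairpins have 85 bases each and match at 50 positions when aligned without gaps, and in both the mature miRNA spans bases 15 to 36. A mature-miRNA assay therefore gives the sum of both genes for miR-194, whereas miR-215 and miR-192 each come from 1 of the gene pairs. Whether the assays for miR-215 and miR-192 fully tell these similar sequences apart was not measured here.

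Each value is a threshold cycle (Ct), the cycle of the PCR at which a well's fluorescence passes a set level, so a lower Ct means more template. The highest Ct in the file is 35, and it was read as not detected. The samples held 219 and 221 detected human miRNAs in the hypoxic and normoxic exosome fraction, and 155 and 162 in hypoxic and normoxic cells. U6, the small nuclear RNA used as normalizer for the cells, had a Ct of 18.81 ± 0.12 in hypoxic cells and 18.82 ± 0.15 in normoxic cells (SD, n = 4 wells of 1 sample). It stood at the ceiling in the exosome fraction, where the spike-in, at Ct 22.99 in hypoxia and 22.94 in normoxia, took its place. The spike-in was at the ceiling in both cell samples. Of 7 blood and lymphoid marker miRNAs, 6 were detected in both cell samples, led by miR-142-3p at Ct 24.97 in hypoxia and 24.95 in normoxia. miR-342-3p was the marker at the ceiling. Of 10 miRNAs listed for liver, gut and kidney epithelium, 7 were detected in both cell samples. The list was not restricted to miRNAs specific to these tissues. The liver-defining miR-122 was at the ceiling in all 4 samples.

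miR-194 was among the latest signals in normoxic cells and came clearly earlier in hypoxic cells. Its Ct was 32.84 in hypoxic cells and 34.97 in normoxic cells. It therefore ranked 110th of 155 detected miRNAs in hypoxic cells and 158th of 162 in normoxic cells, counted from the lowest Ct. Normalized to U6, miR-194 was 4.36-fold higher in hypoxic cells, a log2 change of 2.13. This was the second highest of the 147 changes measured in both cell samples. Above it stood miR-210, the reference miRNA of the hypoxia response, at a log2 change of 3.55, and below it miR-193a-3p at 1.59. At least 2-fold higher were 11 of the 147 assays (7.48%), with miR-194 among them and miR-192 not, and at least 2-fold lower were 9 (6.12%). With RNU44 and RNU48 as normalizer in place of U6 these counts were 6 and 10, and the log2 change of miR-194 was 1.98.

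The normoxic value of miR-194 lay 0.0286 cycles under the ceiling. At such a Ct a miRNA seen in both samples can hardly be lower in hypoxia, since a later well would count as not detected. Of the assays measured in both cell samples, 6 had a normoxic Ct of 34.9 or more. All 6 were higher in hypoxia, with log2 changes of 0.74 to 2.13 and a median of 1.21, and miR-194 had the largest. At the other end, the 6 assays with a hypoxic Ct of 34.9 or more were all lower in hypoxia, with log2 changes of -2.11 to -0.08. Of the 11 assays at least 2-fold higher in hypoxic cells, 4 belonged to the first set. Among the 40 assays with a Ct of 32 or more in both cell samples, 15% were at least 2-fold higher and 10% at least 2-fold lower.

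**Figure D1:**
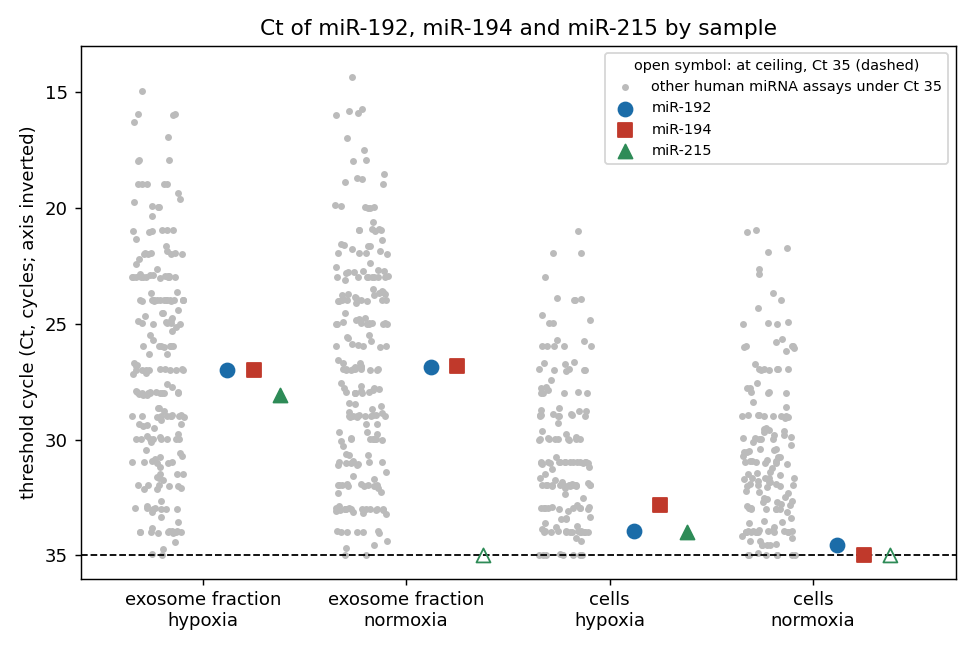
Threshold cycle (vertical axis, inverted) of miR-192, miR-194 and miR-215 in each of the 4 samples (horizontal axis), beside the other human miRNA assays under Ct 35 (grey points). In cells all 3 lie in the late part of the range, between Ct 32.84 and the ceiling at 35. In the hypoxic exosome fraction they lie between 26.97 and 28.07, but only the exosome products were pre-amplified. Open symbols mark wells at the ceiling.

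**Figure D2:**
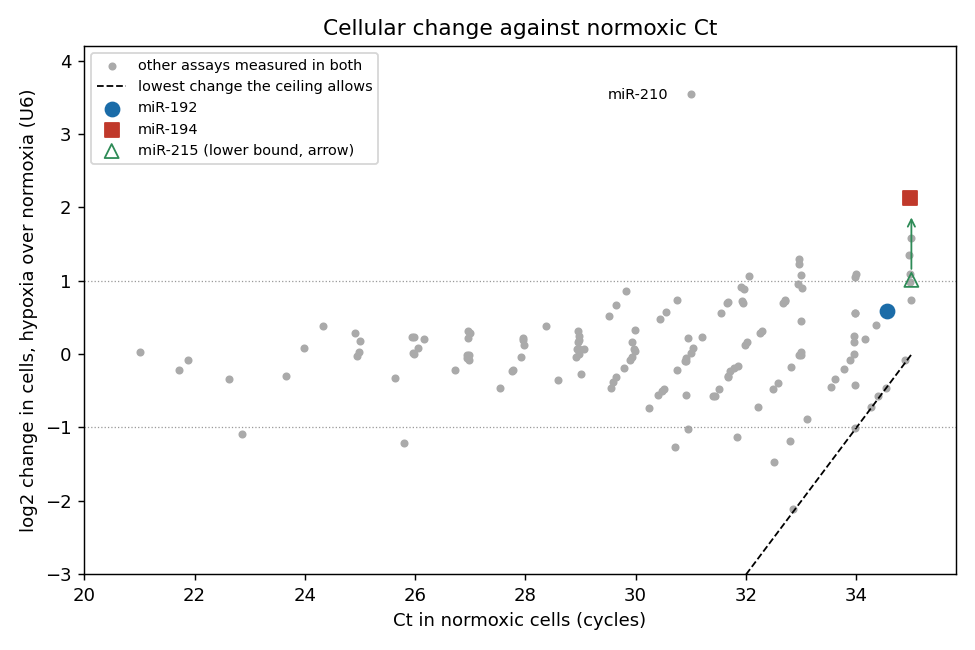
Log2 change in cells, hypoxia over normoxia relative to U6 (vertical axis), against the Ct in normoxic cells (horizontal axis), 1 point per assay measured in both cell samples. The dashed line is the lowest change the ceiling allows at each Ct and the dotted lines mark 2-fold; miR-194, at 2.13, stands at the right edge with the 5 other assays at a normoxic Ct of 34.9 or more, and miR-215 is drawn at its lower bound.

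miR-192 was detected in both cell samples and differed less. Its Ct was 33.95 in hypoxic cells and 34.55 in normoxic cells, ranks 134 of 155 and 152 of 162. The normalized level was 1.51-fold higher in hypoxic cells, a log2 change of 0.59, the 28th highest of 147. The change of miR-194 exceeded that of miR-192 by 1.53 on the log2 scale, a value in which the normalizer cancels. The U6 wells, the repeat measurement on the card, gave an SD of 0.19 for a difference between 1 well of each cell sample. It holds the spread of wells within a sample and no spread between cultures. That figure comes from an abundant RNA, and the spread of wells near Ct 34 was not measured.

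miR-215, which shares its seed with miR-192, was seen in hypoxic cells at Ct 33.98 and stood at the ceiling in normoxic cells. Against Ct 35 it was at least 2.02-fold higher in hypoxic cells, a log2 change of at least 1.01, or at least 0.86 with RNU44 and RNU48 as normalizer. It was 1 of 8 miRNAs seen in hypoxic cells only (2.12% of the 377 assays), against 15 in normoxic cells only (3.98%). Of the other 31 assays within 1 cycle of its hypoxic Ct, 4 were at the ceiling in normoxic cells. All 3 miRNAs thus came earlier in the hypoxic cell sample, miR-215 by a bound that is close to 1 cycle. Normalized to U6, the median log2 change of the 147 assays measured in both cell samples was 0.03, so most of them were also above 0. miR-215 is not among these 147. RNU44 and RNU48 as normalizer shift every cell change by -0.15, so that most of the 147 were then below 0. miR-194 was then at 1.98 and miR-192 at 0.44. In normoxic cells the 3 miRNAs stood at Ct 34.55 or later, where the ceiling leaves little room for a lower value in hypoxia.

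In the exosome fraction miR-215 was again seen in hypoxia and not in normoxia, here from a much earlier Ct. Only the exosome products were pre-amplified, so this Ct does not show a higher level than in cells. Its Ct was 28.07 in the hypoxic exosome fraction, rank 132 of 219, and it stood at the ceiling in the normoxic one. Normalized to the spike-in, miR-215 was at least 127-fold higher in the hypoxic exosome fraction, a log2 change of at least 6.98. It had the third lowest Ct of the 16 miRNAs seen in the hypoxic exosome fraction only (4.24% of assays), after miR-520e and miR-139-3p. In the opposite direction 18 were seen in the normoxic one only (4.77%). Of the other 32 assays within 1 cycle of its Ct, 31 were measured in normoxia too, none of these at least 2-fold higher, and 1 was at the ceiling. miR-215 and miR-520e were the 2 of those 16 miRNAs that were also detected in hypoxic cells. Wells with a far earlier Ct also had a partner at the ceiling. miR-520e had Ct 18.98 in the hypoxic exosome fraction and 35 in the normoxic one. In cells its Ct was 27.01 in hypoxia and 25.81 in normoxia, the opposite direction. miR-493 had Ct 20.94 in normoxic cells and stood at the ceiling in hypoxic cells and in both exosome samples. The cause of such gaps was not tested.

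The pattern of miR-215 over the samples, seen in both hypoxic samples and at the ceiling in both normoxic ones, was that of no other assay among the 377. The reverse pattern, seen in both normoxic samples only, was found in 0 of 377. Counts of 1 and 0 are too small to compare the 2 patterns. Of all assays, 2.12% were seen in hypoxia only in cells and 4.24% in the exosome fraction. The appearance of miR-215 under hypoxia was known when the miRNAs were selected, so its pattern is a description. miR-192 and miR-194 shared detection in all 4 samples with 136 further assays. Each call for miR-215 rests on 1 well per sample, and the deposited Ct does not show whether a well at 35 failed or held no template.

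miR-192 and miR-194 differed little between the exosome samples. miR-192 had a Ct of 26.97 in the hypoxic exosome fraction and 26.88 in the normoxic one, a log2 change of -0.05. miR-194 had a Ct of 26.98 in the hypoxic exosome fraction and 26.82 in the normoxic one, a log2 change of -0.11. Both lay near the middle of the detected miRNAs, at ranks 111 and 114 of 219 in hypoxia and 107 and 105 of 221 in normoxia. The median log2 change of the 203 miRNAs measured in both exosome samples was -0.07, and 3.94% of them were at least 2-fold higher and 3.45% at least 2-fold lower. Normalizing to the median Ct of a sample instead turned the signs, to 0.15 for miR-192 and 0.08 for miR-194. The Ct values of miR-192 and miR-194 lay within 0.06 of each other in each exosome sample. In cells miR-194 was 1.11 cycles earlier than miR-192 in hypoxia and 0.42 later in normoxia.

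For miR-194 the response of the exosome fraction minus that of the cells was -2.24 on the log2 scale (-0.11 in the exosome fraction and 2.13 in cells). Among the 138 miRNAs detected in all 4 samples only miR-210 had a lower difference. The value for miR-194 holds the same cell change, whose normoxic Ct lay 0.0286 cycles under the ceiling. A response is counted here for each miRNA of the 138. A response at least 2-fold lower in the exosome fraction than in cells was found for 14 of these (10.1%) and at least 2-fold higher for 8 (5.8%). The difference for miR-192 was -0.64, the 33rd lowest. For miR-215 both responses are lower bounds, so their difference cannot be given. No interaction was tested, since each response comes from 1 sample per condition.

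**Figure D3:**
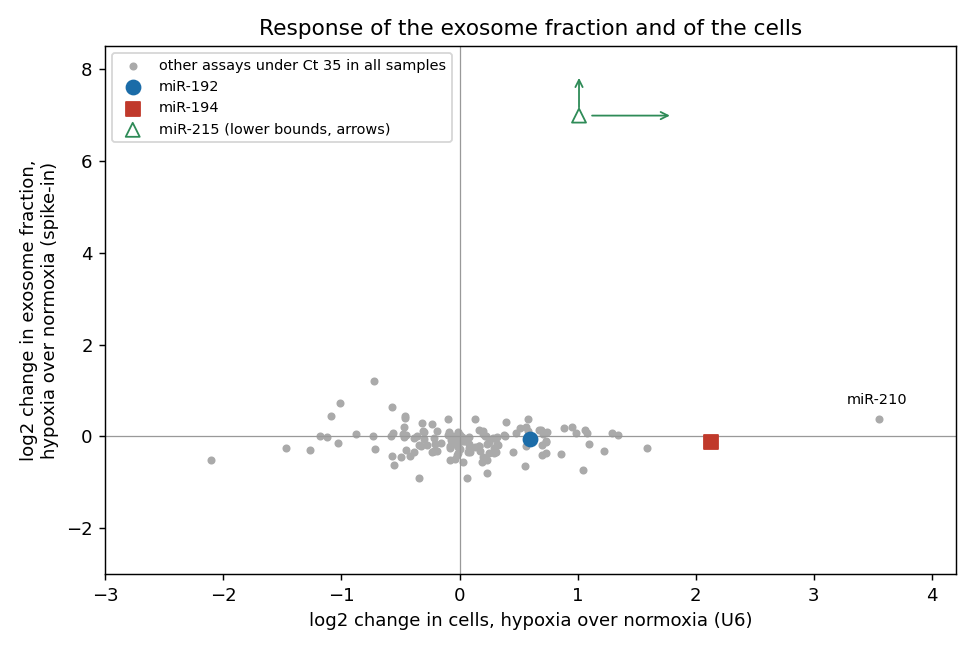
Log2 change, hypoxia over normoxia, in the exosome fraction relative to the spike-in (vertical axis) against that in cells relative to U6 (horizontal axis), 1 point per assay detected in all 4 samples. miR-194 lies far to the right at -0.11 in the exosome fraction and 2.13 in cells, miR-192 lies near the bulk, and miR-215 is drawn at its lower bounds of 6.98 in the exosome fraction and 1.01 in cells.

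Levels in the exosome fraction and in cells were set side by side after each sample was centred on the median Ct of those 138 miRNAs, because only the exosome products were pre-amplified. In hypoxia miR-192 stood at 0.00 on the log2 scale, exosome fraction over cells, miR-194 at -1.13 and miR-215 at -1.07. In normoxia miR-192 stood at 0.73 and miR-194 at 1.21. Thus miR-194 was relatively lower in the exosome fraction in hypoxia and relatively higher there in normoxia. Its exosome Ct differed little, at 26.98 and 26.82, whereas its cell Ct was 32.84 and 34.97. The turn therefore restates mainly the cell change, with a normoxic well 0.0286 cycles under the ceiling. The interquartile range of all 138 miRNAs ran from -1.98 to 0.02 in hypoxia and from -1.53 to 0.34 in normoxia. In hypoxia, 65.9% of the 138 miRNAs had a higher value than miR-194, and in normoxia 10.1%. With the mean in place of the median, miR-194 stood at -0.19 in hypoxia and 1.86 in normoxia.

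The profiles of miR-192 and miR-194 over the 4 samples were compared with those of the other 137 assays detected in all 4. The measure was the root mean square difference in cycles after centring each sample on its median and each assay on its mean. Nearest to miR-192 were miR-203 at 0.0519, miR-34a at 0.0729 and miR-598 at 0.0776 cycles, against a median of 0.67 over the 137. miR-194 had no neighbour as near, in a profile that includes its normoxic cell Ct of 34.97, just under the ceiling. Its closest were miR-652 at 0.464, miR-885-5p at 0.48 and miR-150 at 0.492 cycles, against a median of 0.958. miR-194 was the 53rd nearest assay to miR-192, and miR-192 the 12th nearest to miR-194.

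The 7 miRNAs of the liver, gut and kidney list measured in both cell samples had a median log2 change of 0.32 and ran from -1.47 to 0.99. The largest of these changes belonged to miR-885-5p, at Ct 33.98 in hypoxic cells and 34.97 in normoxic cells. The lowest was that of miR-429, at Ct 33.97 in hypoxic cells and 32.51 in normoxic cells. The 6 blood and lymphoid miRNAs had a median of 0.11, and 0 of them were past 2-fold. Whether RNA from another cell type had a part in the values of miR-192, miR-194 and miR-215 was not tested.

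The Ct values were not spread evenly between whole cycles. Those within 0.1 of a whole cycle made up 67.1% of detected miRNAs in the hypoxic and 61.1% in the normoxic exosome fraction, and 71.6% in hypoxic and 53.7% in normoxic cells, where an even spread would give 20%. Of the 10 Ct values under 35 that miR-192, miR-194 and miR-215 have, 6 lay that close. In hypoxia these were miR-215 in both samples, miR-192 in both and miR-194 in the exosome fraction. In normoxia it was miR-194 in cells, and its hypoxic cell value, 32.84, lay 0.159 from a whole cycle. The log2 change of 0.59 for miR-192 in cells is smaller than a step of 1 cycle, and the part of this clustering in the results was not tested.

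**Figure D4:**
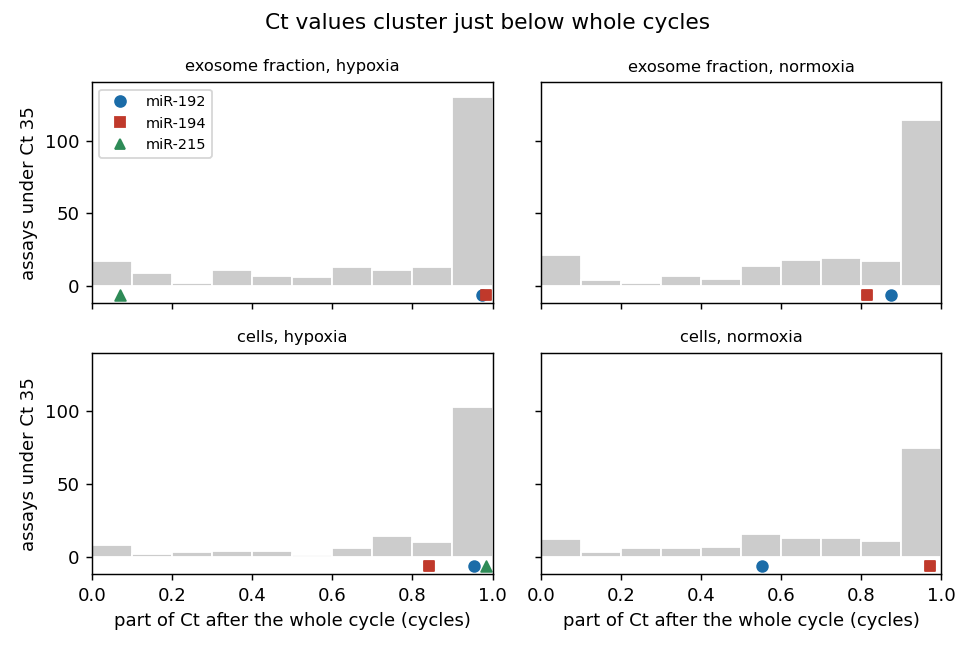
Part of each Ct that follows the whole cycle (horizontal axis, cycles) against the number of human miRNA assays under Ct 35 (vertical axis), 1 panel per sample. The last bar, 0.1 cycles wide, holds 130 and 114 assays in the hypoxic and normoxic exosome fraction and 103 and 75 in hypoxic and normoxic cells; coloured symbols below the bars mark miR-192, miR-194 and miR-215.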

How the data were processed

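Per the series' design text, miRNAs were measured with human TaqMan miRNA array cards A, U6 served as invariant control in cells and ath-miR159 in the exosome fraction, and Data Assist 3.1 was used. The deposited first table holds 1 raw Ct per well, treated as a score with no normalization. The origin of the ceiling of 35 is not stated in the labels. The other deposited table holds the authors' ratio of hypoxia over normoxia. For miR-192, miR-194 and miR-215 the authors' deposited table gives 1.5085, 4.363 and 2.0164 in cells and 0.9689, 0.9236 and 126.573 in the exosome fraction. The values for miR-215 there take 35 as measured.

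Log2 changes were recomputed as normalized normoxic Ct minus normalized hypoxic Ct, with Python 3.11.15 and pandas 2.3.3, and differed from the log2 of the authors' ratios by at most 0.000356. The calculation was tested on simulated data. An assay was called past 2-fold only with a Ct under 35 in both samples; a miRNA at the ceiling in 1 sample has a bound against 35. PCR was taken to double the template per cycle. Ct carries no depth, so no counting interval applies.

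The members and lists were chosen with earlier results of these data known. Named miRNAs were the members, controls, miR-210, neighbours of miR-194 in order of cellular change, and the 3 nearest profiles. The miRNAs miR-520e, miR-139-3p and miR-493 and the marker miRNAs named were chosen after their values were seen. A pair of further miRNA lists is not reported here. Alternatives were other normalizers, U6 wells left out in turn, lower ceilings and Ct limits.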

Additional observations from a re-analysis of the deposited data

Results flagged for a closer look

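miR-194 and miR-192 had positive log2 changes in cells (2.13 and 0.59) and values just below 0 in the exosome fraction (-0.11 and -0.05), so that the signs were opposite with the spike-in as normalizer. These exosome values are smaller than the SD of 0.19 for a difference between U6 wells of the cell samples. The spread of wells in the exosome fraction was not measured, since U6 stood at the ceiling there. With the median Ct of each exosome sample as normalizer the exosome values were 0.08 and 0.15, the same sign as in cells. The response of the exosome fraction minus that of the cells was -2.24 for miR-194 and -0.639 for miR-192 on the log2 scale. The difference was not tested, because each response rests on 1 sample per condition. For miR-194 it holds a cell change from a normoxic Ct 0.0286 cycles under the ceiling. With the spike-in, 72 (52.2%) of the 138 miRNAs detected in all 4 samples had opposite signs in the compartments, and 48 (34.8%) had a negative value in the exosome fraction and a positive one in cells. With the median Ct in the exosome fraction, a comparison added after seeing the data, these numbers were 68 (49.3%) and 28 (20.3%), and neither miR-194 nor miR-192 was among the 28.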

How the results depend on the processing

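No paired analysis was possible because each group holds 1 sample. A log2 value was taken to have moved when it changed by more than 0.19, and a count when it changed by more than 1.5 times. The limit of 0.19 is the SD of a difference between U6 wells of the cell samples. It was used for exosome values too, though the spread of wells there was not measured. Leaving out each U6 well in turn gave 2.09 to 2.18 for miR-194, 0.56 to 0.65 for miR-192 and 0.98 to 1.07 for miR-215 in cells. With Ct 34 as the ceiling, miR-194, miR-192 and miR-215 in cells became bounds of at least 1.15, 0.0402 and 0.0118, and miR-215 in the exosome fraction at least 5.98; the shorter range to the ceiling sets these. With the median normalizer the exosome changes were 0.15 for miR-192, 0.0847 for miR-194 and at least 7.18 for miR-215. The 11 assays 2-fold higher in cells became 6 with RNU44 and RNU48 (10 lower), 6 with Ct 32 or more in both, 5 with Ct under 32 in at least 1, and 7 with wells within 0.1 cycles of the ceiling left out, a limit chosen after seeing the data. The 9 lower became 4 and 5 under the Ct 32 limits. In the exosome fraction the 8 higher became 2 with Ct 32 or more in both, and the 7 lower became 4 with Ct 32 or more in both and 3 with Ct under 32 in at least 1. Exosome fraction over cells in hypoxia, with the mean and then with no normalizer, was 0.93 and 6.98 for miR-192, -0.19 and 5.86 for miR-194, and -0.14 and 5.91 for miR-215. In normoxia it was 1.38 and 7.68 for miR-192 and 1.86 and 8.16 for miR-194. Without a normalizer the sign of miR-194 and miR-215 in hypoxia thus turned; raw values also hold pre-amplification, input and recovery, and the cause was not tested. By these limits 35 of 52 alternative log2 values and 9 of 18 alternative counts did not move. The tally of log2 values was partly fixed in advance, so it does not measure how firm the results are. RNU44 and RNU48 shift every cell change by the same -0.15, which is within the limit. Leaving out a U6 well also shifts all 3 miRNAs alike. A lower ceiling cannot reach the exosome values of miR-192 and miR-194. The alternatives planned for miRNA lists that are not reported here were not run.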
